A study of Mus musculus with 14 samples.

Results

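The blood-brain barrier is formed by the endothelial cells of brain capillaries, which are sealed by tight junctions, take up little by vesicles and rely on transporters for nutrients and for pumping out drugs. Pericytes wrap these capillaries and help to keep the barrier closed. In the hypothalamus most capillaries have this barrier, whereas those of the median eminence are fenestrated, so that hormones can pass. A list of 34 genes of this endothelium and its pericytes was followed here, and 31 of them were measured among the 17097 genes of the array table. For each gene the probe set that names only this gene, and has the highest mean over 14 arrays, gave the value. Ly6a, Itm2a and Abcc9 had no such probe set and were not analysed here. The 31 genes comprised 7 junction and adhesion genes, 7 transporters, 5 angiogenic receptors, 3 endothelial transcription factors, 6 other endothelial markers and 3 pericyte genes.

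Whole hypothalamus was taken at 12 weeks of age from mice on a mixed C57Bl/6J, FVB/N and 129 background. Control mice were either random fed (n = 4) or fasted for 16 h (n = 3), and mice labelled POMCMfn1KO were random fed (n = 4) or fasted for 16 h (n = 3). In the knockout, the mitochondrial fusion gene Mfn1 is deleted in the neurons that make pro-opiomelanocortin (POMC), not in vessel cells, and no Cre line is named in the sources used here. Values are log2 expression, and every difference below is a difference of log2 values with its standard error (SE) from limma, with p-values adjusted by the Benjamini-Hochberg method over all 17097 genes and a threshold of 0.05. The labels do not say that each array is a separate mouse, and p-values then cover only the spread among these samples, which may be technical.

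Mfn1 itself was at 9.04 ± 0.06 (SD, n = 4) in the control fed group and at 9.06 ± 0.04 (SD, n = 4) in the knockout fed group. In whole tissue this gives no check of the labels, since few cells are POMC neurons and its probes may read a stretch that is not deleted. Peptide genes that mark the hypothalamus were well above background on every array, with Pmch (melanin-concentrating hormone) at 12.06 to 12.63 and Oxt (oxytocin) at 10.07 to 10.96. Control fed replicate 1 was the lowest array for both. It was also lowest for Avp (vasopressin), at 9.06 against 10.46 to 11.27 on the other arrays. The mean centred level of the 6 measured peptide genes was -0.72 on this array, the lowest of all. Whether its dissection differed was not tested. The 23 nonspecific probe sets of the array reached 5.28, and Cdh5, Tie1, Erg, Gkn3, Vwf and Pdgfrb had mean levels below this value, so their differences rest on dim signals. In whole tissue, fewer cells of a type and less RNA per cell cannot be told apart. All 6 fasted arrays and 1 fed array (knockout fed replicate 1) carry lower sample numbers in their titles than the other 7 fed arrays. These sets are called the low and the high number series here, a cut that the titles do not name. A wider gap in the numbers lies within the low series, and what the numbers stand for is not given. Fasting was nearly confounded with this cut.

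The first question was which vessel genes differed between fasted and fed mice. Averaged over both genotypes (6 fasted against 8 fed arrays), 12 of the 31 genes passed the threshold in limma, which is 38.7% of them, against 10.0% of all genes tested. The list was chosen with earlier results of these data known, so its share of calls is not independent of them. Mfsd2a, Slc7a5, Slc7a1 and Ctla2a rose, where 5.14% of all genes were called higher, and Cdh5, Tjp1, Tek, Sox18, Cav1, Gkn3, Emcn and Kcnj8 fell, where 4.9% of all genes were called lower. The median difference of the 31 genes was -0.02, against 0.0025 for all genes, with 15 genes above 0 and 16 below. The list as a whole had no common direction. The transporters had a median of 0.27 with 3 of 7 genes called, all higher. The other endothelial markers had a median of -0.26 with 1 of 6 called higher and 3 called lower. The plot of fasting differences by role shows both genotypes side by side.

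**Figure D1:**
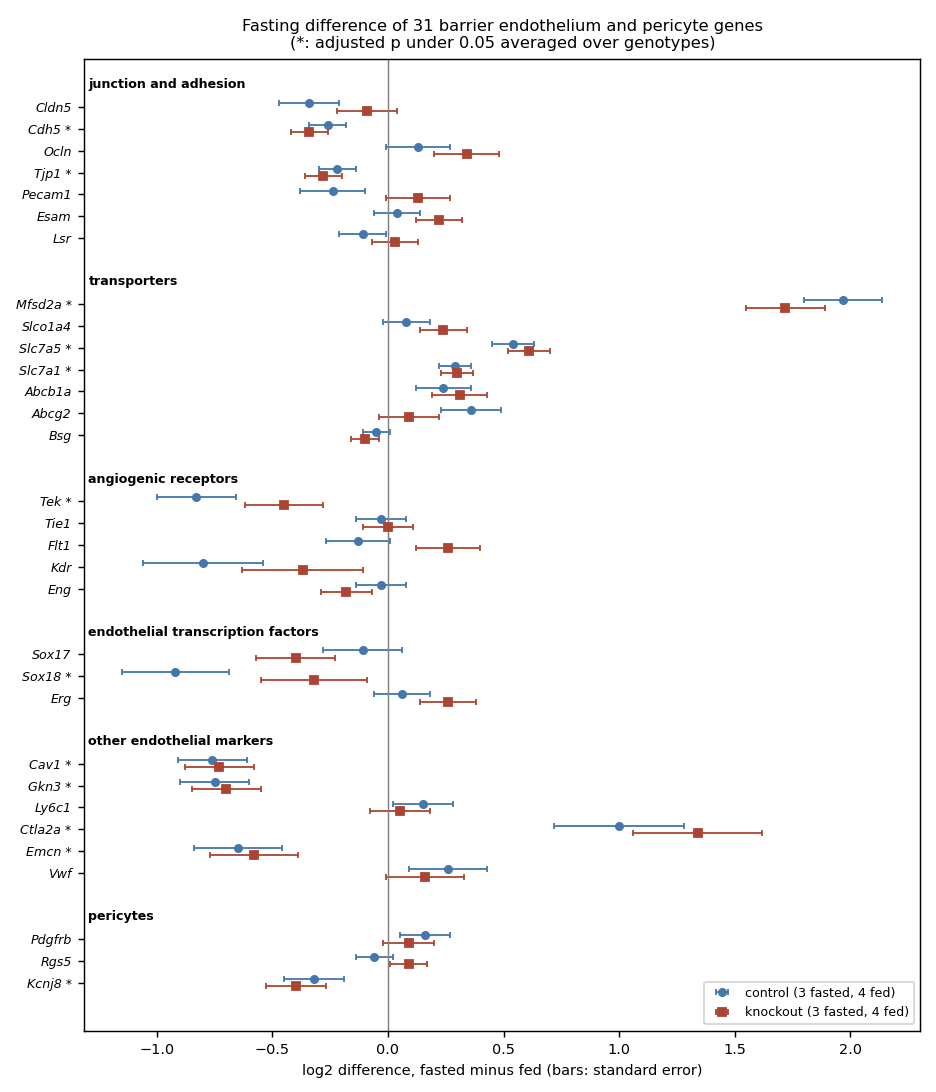
Log2 difference between fasted and fed arrays (x axis) for each of the 31 measured genes, grouped by role, in control mice (circles) and knockout mice (squares), with bars of 1 standard error from limma and 3 fasted and 4 fed arrays per genotype. Mfsd2a lies farthest to the right at 1.97 in control and 1.72 in knockout mice, Cav1 and Gkn3 lie between -0.70 and -0.76 in both genotypes, and the junction genes lie between -0.34 and 0.34.

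Of the 31 genes, 8 had fed and fasted arrays that did not overlap at all, against 3.4% of all genes tested. Mfsd2a, Slc7a5, Slc7a1 and Ctla2a were higher on every fasted array than on any fed array, and Cdh5, Tjp1, Cav1 and Gkn3 were lower on every fasted array. Within control mice alone, 7 of the 31 genes passed, or 22.6%, against 2.76% of all genes, and 13 had groups that did not overlap, where 16.5% of all genes had. Within knockout mice alone, 5 of the 31 passed, or 16.1%, against 0.696% of all genes. The called genes in control mice were Mfsd2a, Slc7a5, Slc7a1, Tek, Sox18, Cav1 and Gkn3, and those in knockout mice were Mfsd2a, Slc7a5, Cav1, Gkn3 and Ctla2a. The count in control mice was 2 without control fasted replicate 1 or without control fasted replicate 3 (312 and 216 of all genes, against 472). It was 4 without control fed replicate 1 or 2 (327 and 282 of all genes). The count in knockout mice was 1 when knockout fasted replicate 2 was left out, 7 when knockout fasted replicate 3 was left out, and 2 or 3 when any other array of either genotype was. Of all genes 18, 363 and 37 to 116 passed there, against 119.

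For 10 of the 12 called genes, knockout fed replicate 1, the single fed array of the low number series, lay on the fed side of all 6 fasted arrays. For Sox18 and Emcn it lay within the range of the fasted arrays. In an alternative that adds the number series as a covariate, and so rests on this array, Mfsd2a alone stayed past the threshold at 1.61 (adjusted p = 0.0435, limma). Under this alternative 15 of all 17097 genes passed, against 1715 without it. The other 11 genes did not pass but all had the sign of the full fit, with Slc7a5 at 0.57, Tjp1 at -0.25, Ctla2a at 1.47, Gkn3 at -0.68 and Kcnj8 at -0.32, close to or above their full size, and Cav1 at -0.37, the one that shrank most. Within the low series (an alternative added after seeing the data), 3 knockout fasted arrays face this 1 fed array, and the SE comes from the spread of the fasted groups alone. None of the 12 genes passed there. Mfsd2a was at 1.52 ± 0.25, Ctla2a at 1.60 ± 0.51, Gkn3 at -0.66 ± 0.10 and Cav1 at -0.41 ± 0.21, from arrays that are also part of the full fit.

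Promoters of called genes are shown to give the sequences just upstream of the genes that moved in opposite directions, Mfsd2a and Ctla2a higher and Tek and Emcn lower. The RefSeq table of GRCm38.p6 holds windows of 250 bases before to 50 bases after a gene's start, 5′ to 3′ on the gene's strand. It has 12 such windows for 9 of the 12 called genes. Capitals mark a match to a searched motif, and the Mfsd2a window has none. The windows are chr4:122961139-122961438 on the minus strand for Mfsd2a, chr13:60936576-60936875 on the minus strand for Ctla2a, chr4:94739039-94739338 on the plus strand for Tek and chr3:137340828-137341127 on the plus strand for Emcn.
Mfsd2a: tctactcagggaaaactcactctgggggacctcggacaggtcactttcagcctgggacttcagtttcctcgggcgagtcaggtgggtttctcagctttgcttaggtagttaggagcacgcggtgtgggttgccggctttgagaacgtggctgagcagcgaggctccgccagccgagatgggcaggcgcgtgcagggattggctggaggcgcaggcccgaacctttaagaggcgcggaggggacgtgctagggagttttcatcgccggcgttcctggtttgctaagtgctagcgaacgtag
Ctla2a: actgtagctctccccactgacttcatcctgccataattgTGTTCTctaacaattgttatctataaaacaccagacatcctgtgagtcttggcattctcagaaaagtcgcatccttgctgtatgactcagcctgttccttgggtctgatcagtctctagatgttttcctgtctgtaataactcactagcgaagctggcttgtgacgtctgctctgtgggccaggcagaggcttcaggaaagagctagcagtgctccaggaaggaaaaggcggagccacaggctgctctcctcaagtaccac
Tek: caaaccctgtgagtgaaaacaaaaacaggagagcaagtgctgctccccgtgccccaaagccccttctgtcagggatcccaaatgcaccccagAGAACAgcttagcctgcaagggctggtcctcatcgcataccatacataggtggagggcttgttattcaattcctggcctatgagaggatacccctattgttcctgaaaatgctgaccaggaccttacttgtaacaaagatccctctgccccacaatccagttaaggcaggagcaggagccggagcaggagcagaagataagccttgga
Emcn: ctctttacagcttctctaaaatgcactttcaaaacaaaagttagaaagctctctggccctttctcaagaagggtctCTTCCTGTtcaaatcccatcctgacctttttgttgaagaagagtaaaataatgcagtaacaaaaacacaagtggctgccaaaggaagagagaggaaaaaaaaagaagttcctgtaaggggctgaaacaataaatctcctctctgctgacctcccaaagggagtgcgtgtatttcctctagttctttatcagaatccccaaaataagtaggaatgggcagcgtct

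Both strands were searched for exact letters. The glucocorticoid receptor palindrome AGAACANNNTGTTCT was in 0 of the 12 windows and in 0.00913% of all 32851 windows. Its 6-letter element TGTTCT, which both arms of the palindrome contain, on opposite strands, was in 4 of the 12 windows, of Cav1, Ctla2a, Slc7a1 and Tek, and in 19.0% of all windows. Cav1, Ctla2a and Slc7a1 each have a further window without this element, and that of Ctla2a is not shown. In the windows shown TGTTCT begins at -211 in Ctla2a and, on the other strand, at -158 in Tek. The forkhead motif TGTTTAC was in 0 of 12 windows and in 3.65% of all. The ETS motif ACAGGAAG, named for the factor family to which the endothelial factor Erg belongs, was in 1 window, that of Emcn at -174, and in 3.58% of all. The Mfsd2a window has 22 CG dinucleotides, against a median of 7.0 over all windows, and the Emcn window has 2. These matches describe letters in the windows and no binding was measured.

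Among the 7 transporters, Mfsd2a (Entrez gene ID 76574) had the largest difference. It encodes the carrier that brings lysophospholipids with docosahexaenoic acid into the brain and that holds down transcytosis in barrier endothelium. The control fed arrays read 7.73, 7.71, 7.39 and 7.34 and the control fasted arrays 9.42, 9.51 and 9.62. The knockout fed arrays read 7.85, 7.52, 7.35 and 7.88 and the knockout fasted arrays 9.25, 9.78 and 9.07. Every fasted array thus stood more than 1 log2 unit above every fed array. Mfsd2a rose by 1.97 ± 0.17 in control mice (adjusted p = 8.6e-05) and by 1.72 ± 0.17 in knockout mice (adjusted p = 0.000766), and by 3.59-fold averaged over both in limma.

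Slc7a5 (gene ID 20539) encodes LAT1, the light chain of an exchanger for large neutral amino acids and thyroid hormone. Its control fed arrays read 8.24, 8.22, 8.26 and 8.28 and its control fasted arrays 8.76, 8.79 and 8.83. In knockout mice it read 8.31, 8.26, 8.12 and 8.53 when fed and 8.86, 9.07 and 8.80 when fasted. No fasted array overlapped a fed one, and the control arrays were spread by less than 0.1 within each feeding state. Slc7a5 rose by 0.54 ± 0.09 in control mice (adjusted p = 0.0043, limma) and by 0.61 ± 0.09 in knockout mice (adjusted p = 0.00708, limma).

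Slc7a1 (gene ID 11987) encodes CAT1, the carrier of cationic amino acids such as arginine. It read 8.82, 9.04, 9.12 and 9.09 in control fed mice, 9.22, 9.32 and 9.37 in control fasted mice, 9.16, 9.09, 9.08 and 9.05 in knockout fed mice and 9.40, 9.36 and 9.42 in knockout fasted mice. Fed and fasted arrays did not overlap, although the gap between the highest fed array (9.16) and the lowest fasted array (9.22) was small. Slc7a1 rose by 0.29 ± 0.05 averaged over genotypes (adjusted p = 0.00322, limma), and its call within control mice alone (0.29 ± 0.07, adjusted p = 0.0462) was held in 5 of 21 alternatives.

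The remaining 4 transporters did not pass. Abcb1a, the P-glycoprotein that pumps drugs back into the blood, came closest with 0.27 ± 0.09 (adjusted p = 0.0652, limma). Its fed arrays ranged from 7.70 to 8.18 and its fasted arrays from 8.10 to 8.46. Abcg2, a further efflux pump, differed by 0.23 ± 0.09 (adjusted p = 0.132), and Slco1a4, a carrier of organic anions, by 0.16 ± 0.07 (adjusted p = 0.17). Bsg (basigin), the partner of lactate carriers, differed by -0.08 ± 0.05 (adjusted p = 0.327), with every array between 11.19 and 11.47. The mean centred level of the 7 transporters lay between -0.35 and -0.05 on fed arrays and between 0.20 and 0.35 on fasted arrays, a score in which Mfsd2a weighs most.

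**Figure D2:**
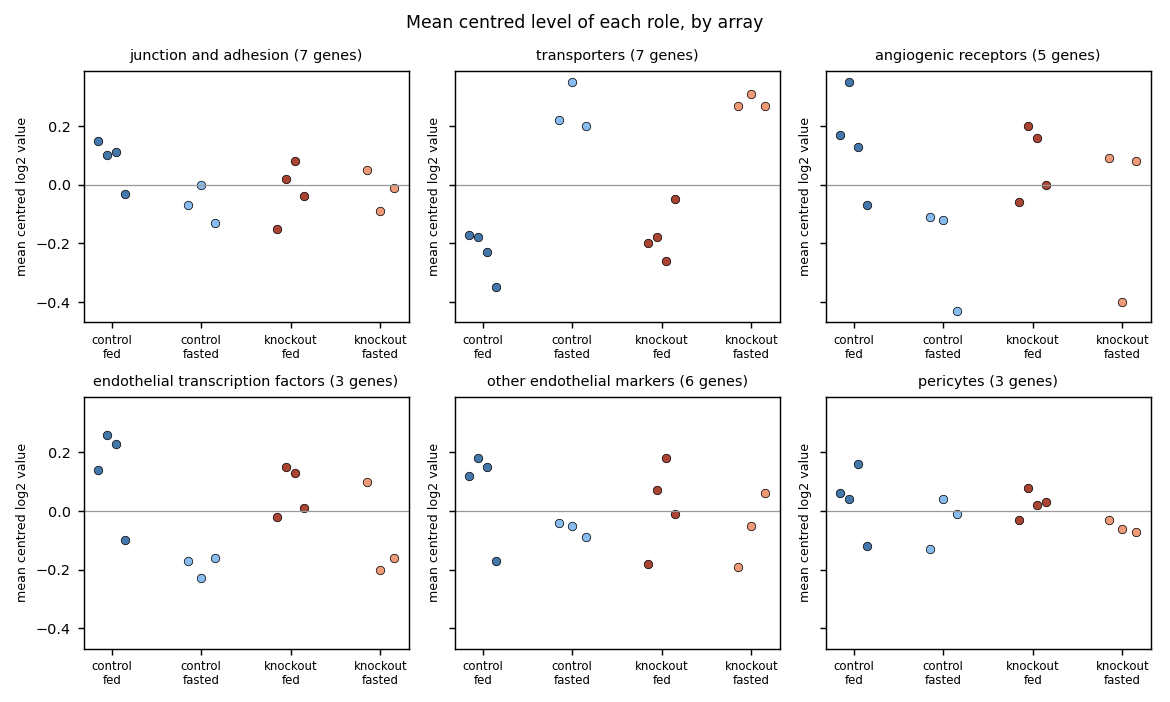
Mean log2 level of each role's genes, each gene centred on its mean over 14 arrays (y axis), by array in the 4 groups (x axis), 1 point per array. Fed and fasted arrays separate for the transporters, at -0.35 to -0.05 and 0.20 to 0.35, and overlap for each of the other 5 roles.

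Among the 7 junction and adhesion genes, 2 fell and none rose, with a median of -0.05. Tjp1 (gene ID 21872) encodes ZO-1, the scaffold that ties tight junction strands to actin and that many cell types besides endothelium make. It read 9.54, 9.55, 9.56 and 9.47 in control fed and 9.28, 9.44 and 9.20 in control fasted mice, and 9.54, 9.51, 9.55 and 9.55 in knockout fed and 9.37, 9.02 and 9.39 in knockout fasted mice. The 8 fed arrays lay within 0.1 of each other and all above the fasted arrays, of which knockout fasted replicate 2 was lowest. Tjp1 fell by 0.25 ± 0.06 averaged over genotypes (adjusted p = 0.0184, limma).

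Cdh5 (gene ID 12562) encodes VE-cadherin, the adherens junction protein that defines endothelium. It read 4.98, 4.95, 5.21 and 5.05 in control fed, 4.76, 4.88 and 4.72 in control fasted, 5.11, 5.14, 5.21 and 5.08 in knockout fed and 4.67, 4.78 and 4.93 in knockout fasted mice. Fasted and fed arrays did not overlap, and the averaged difference was -0.30 ± 0.05 (adjusted p = 0.00449, limma). This probe set lies below the brightest nonspecific one, the gene's other probe set was at 0.08 ± 0.05, and the mean of both was at -0.11 and did not pass.

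Cldn5, the claudin that makes the barrier's tight junctions impermeable to small molecules, did not pass. It read 9.22, 9.23, 9.12 and 8.89 in control fed and 8.75, 8.90 and 8.66 in control fasted mice, and 8.84, 9.02, 8.99 and 8.88 in knockout fed and 9.19, 8.50 and 8.84 in knockout fasted mice. The difference was -0.34 ± 0.13 in control mice (adjusted p = 0.192) and -0.09 ± 0.13 in knockout mice (adjusted p = 0.794) in limma. The knockout fasted arrays alone spanned the lowest and nearly the highest of the 14 values. Ocln (occludin, a tight junction protein) differed by 0.23 ± 0.10 and Esam, an endothelial adhesion molecule, by 0.13 ± 0.07. Pecam1, the adhesion molecule CD31, differed by -0.05 ± 0.10, and Lsr (angulin-1, a protein of tricellular junctions) by -0.04 ± 0.07. Their adjusted p lay at 0.146 for Ocln, 0.256 for Esam, 0.773 for Pecam1 and 0.793 for Lsr.

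Among the 5 angiogenic receptors, 1 fell and none rose, with a median of -0.11. Tek (gene ID 21687) encodes TIE2, the receptor of the angiopoietins. The control fed arrays read 6.77, 6.86, 6.65 and 6.23 and the control fasted arrays 5.73, 5.94 and 5.72. The knockout fed arrays read 6.37, 6.58, 6.62 and 6.31 and the knockout fasted arrays 6.24, 5.55 and 6.26. In control mice the groups were apart, and across genotypes 2 knockout fasted arrays reached the lowest fed array. Tek fell by 0.83 ± 0.17 in control mice (adjusted p = 0.0234, limma), a call held in 15 of 21 alternatives, and was at -0.45 ± 0.17 in knockout mice (adjusted p = 0.221). Averaged over genotypes it fell by 0.64 ± 0.12 (adjusted p = 0.00665, limma).

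Kdr encodes VEGFR2, the main signalling receptor of VEGF-A, and lay just outside the threshold. It read 6.42, 6.54, 6.16 and 5.67 in control fed and 5.52, 5.49 and 5.18 in control fasted mice, and 5.78, 6.34, 6.29 and 5.77 in knockout fed and 5.94, 4.97 and 6.10 in knockout fasted mice. The control groups did not overlap, whereas the knockout groups did. The averaged difference was -0.59 ± 0.19 (adjusted p = 0.0632, limma).

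Flt1 encodes VEGFR1, a decoy receptor of VEGF-A, and its brightest probe set was at 0.07 ± 0.10 (adjusted p = 0.733). Tie1, the orphan partner of TIE2, was at -0.02 ± 0.08 with every array between 3.75 and 4.25, near background. Eng (endoglin), a co-receptor of BMP9, was at -0.11 ± 0.08 (adjusted p = 0.415). Receptors of 1 list thus did not share a difference, and those of TIE2 and VEGFR2 had the largest.

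Of the 3 endothelial transcription factors, Sox18 (gene ID 20672), a SOXF factor of vessel and lymphatic development, fell by 0.62 ± 0.16 averaged over genotypes (adjusted p = 0.0276, limma). It read 7.05, 7.60, 6.91 and 6.57 in control fed and 6.22, 6.38 and 5.75 in control fasted mice, and 6.83, 6.98, 7.28 and 6.57 in knockout fed and 6.85, 6.41 and 6.51 in knockout fasted mice. The control groups were apart and the knockout groups overlapped. Its call within control mice alone was held in 6 of 21 alternatives. The averaged call was held in 15 of 20 alternatives and was lost when control fasted replicate 3 (-0.53), knockout fasted replicate 2 (-0.58), knockout fed replicate 2 (-0.61) or knockout fed replicate 3 (-0.56) was left out. Sox17, its close relative in arterial endothelium, was at -0.25 ± 0.12 (adjusted p = 0.204), and the ETS factor Erg at 0.16 ± 0.09 (adjusted p = 0.259).

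Of the 6 other endothelial markers, 3 fell and 1 rose. Cav1 (gene ID 12389) encodes caveolin-1, the coat protein of caveolae, the vesicles of transcytosis that Mfsd2a is known to hold down in brain endothelium. It read 8.23, 8.38, 8.32 and 8.07 in control fed and 7.39, 7.68 and 7.39 in control fasted mice, and 7.90, 8.45, 8.39 and 8.14 in knockout fed and 7.28, 7.38 and 7.80 in knockout fasted mice. All 6 fasted arrays lay below all 8 fed arrays. Cav1 fell by 0.76 ± 0.15 in control mice (adjusted p = 0.014) and by 0.73 ± 0.15 in knockout mice (adjusted p = 0.0441) in limma, and the knockout call was held in 7 of 21 alternatives. Knockout fed replicate 1, at 7.90, was the lowest fed array and the nearest to the fasted ones. The averaged difference of -0.75 shrank to -0.37 once the number series was a covariate. A link between the differences of Cav1 and Mfsd2a was not tested.

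Gkn3 (gene ID 68888), a gastrokine gene that marks arterial endothelium in mouse brain, read 4.89, 5.27, 5.23 and 5.06 in control fed and 4.32, 4.43 and 4.33 in control fasted mice. In knockout mice it read 4.94, 4.94, 5.42 and 4.61 when fed and 4.30, 4.18 and 4.36 when fasted. No fasted array reached a fed one, although all values lie near background. Gkn3 fell by 0.75 ± 0.15 in control mice (adjusted p = 0.0146) and by 0.70 ± 0.15 in knockout mice (adjusted p = 0.0491) in limma, and the knockout call was held in 4 of 20 alternatives. Its other probe set was also lower, at -0.48 ± 0.08.

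Emcn (gene ID 59308) encodes endomucin, a sialomucin of venous and capillary endothelium. It read 6.81, 6.61, 6.90 and 6.42 in control fed and 5.99, 6.26 and 5.86 in control fasted mice, and 6.60, 6.76, 7.09 and 6.48 in knockout fed and 6.06, 5.79 and 6.60 in knockout fasted mice. Knockout fasted replicate 3, at 6.60, was the 1 fasted array within the fed range. Emcn fell by 0.62 ± 0.13 averaged over genotypes (adjusted p = 0.0123, limma).

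Ctla2a (gene ID 13024) encodes a protein related to cathepsin propeptides that inhibits cysteine proteases. It read 6.60, 6.55, 6.37 and 5.93 in control fed and 7.66, 6.70 and 7.72 in control fasted mice, and 6.03, 6.53, 6.25 and 6.33 in knockout fed and 7.55, 8.25 and 7.08 in knockout fasted mice. All fasted arrays were above all fed arrays, with control fasted replicate 2 only just so. Ctla2a rose by 1.17 ± 0.20 averaged over genotypes (adjusted p = 0.00333, limma), or 2.25-fold. Ctla2a held its call within knockout mice alone in 6 of 21 alternatives. Its near-identical neighbour Ctla2b had a probe set of its own at 0.33 ± 0.12 (adjusted p = 0.0936), and how far the Ctla2a probe sets read Ctla2b was not tested. Ly6c1, a surface antigen of brain endothelium with a near-identical neighbour, Ly6c2, was at 0.10 ± 0.09 (adjusted p = 0.542), and Vwf, the clotting factor stored in endothelial granules, at 0.21 ± 0.12 (adjusted p = 0.295).

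**Figure D3:**
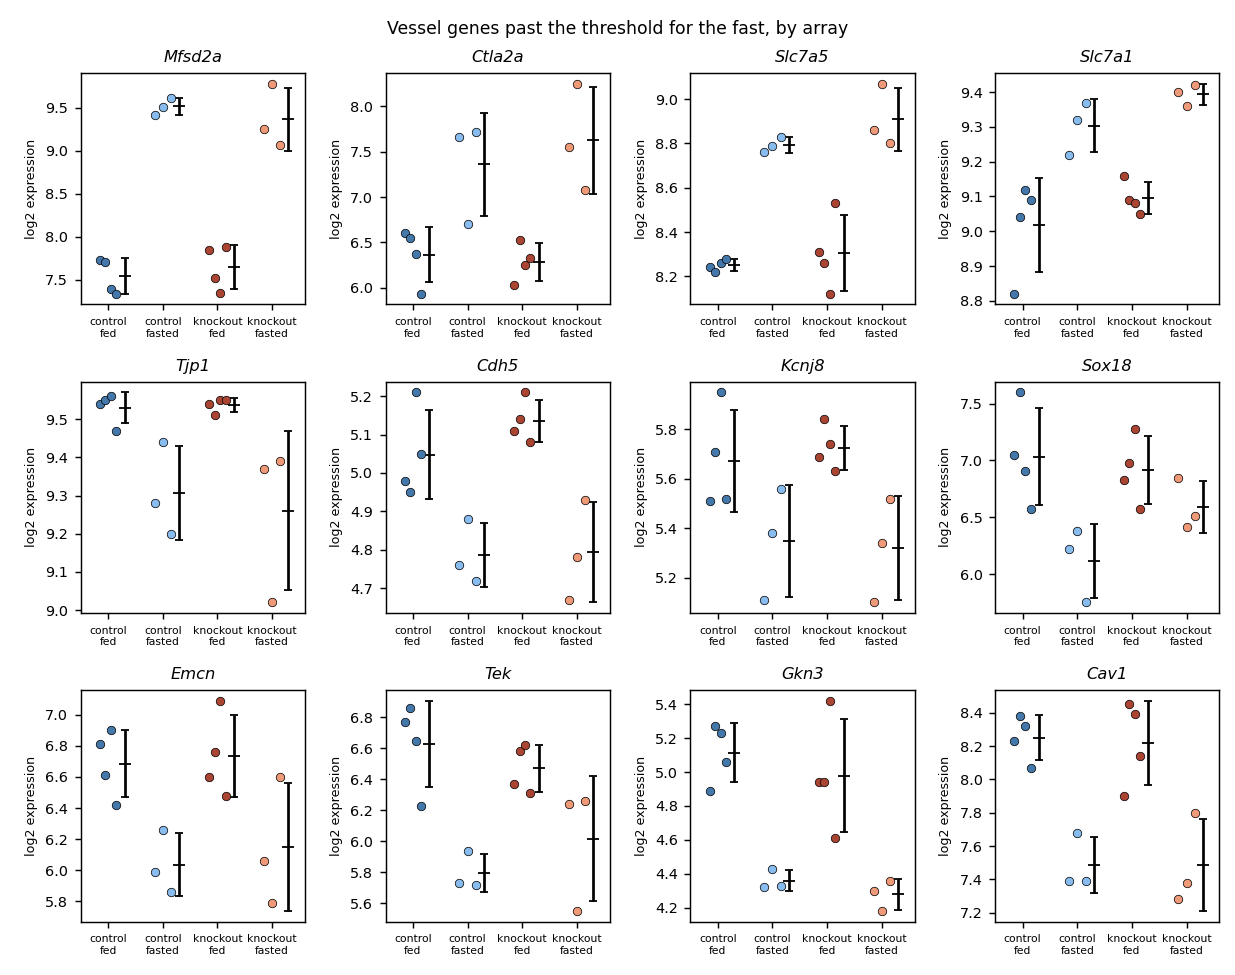
Log2 expression (y axis, a separate scale per gene) of the 12 called genes on each of 14 arrays in the 4 groups (x axis), with the group mean and bars of 1 SD (n = 4 fed, n = 3 fasted) beside the points. Fed and fasted arrays do not overlap for Mfsd2a, Ctla2a, Slc7a5, Slc7a1, Tjp1, Cdh5, Gkn3 and Cav1, and overlap for Kcnj8, Sox18, Emcn and Tek.

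The 3 pericyte genes had a median of 0.02. Kcnj8 (gene ID 16523), the pore subunit of the ATP-sensitive potassium channel of brain pericytes, read 5.51, 5.71, 5.95 and 5.52 in control fed and 5.11, 5.38 and 5.56 in control fasted mice. In knockout mice it read 5.69, 5.84, 5.74 and 5.63 when fed and 5.10, 5.34 and 5.52 when fasted. The knockout groups were apart and the control groups overlapped. Kcnj8 fell by 0.36 ± 0.09 averaged over genotypes (adjusted p = 0.024, limma), and this call was lost without control fasted replicate 1 (-0.30), knockout fasted replicate 1 (-0.31) or knockout fasted replicate 2 (-0.37). Pdgfrb, the receptor through which endothelial PDGF-B recruits pericytes, was at 0.12 ± 0.08 (adjusted p = 0.332). Rgs5, a regulator of G protein signalling and a widely used pericyte marker, was at 0.02 ± 0.06 (adjusted p = 0.889), with fed arrays at 10.16 to 10.53 and fasted arrays at 10.28 to 10.40.

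For 10 of the 31 genes more than 1 probe set named only the gene, and these gave a further view of the same arrays, here with p-values adjusted over all 28898 such probe sets. The probe sets of Ctla2a gave 1.17 ± 0.20 and 1.19 ± 0.19, and both passed. Those of Slc7a1 gave 0.29 ± 0.05, 0.20 ± 0.04 and, near background, 0.12 ± 0.07, of which the first and second passed. For Rgs5 the brightest probe set was at 0.02 ± 0.06, the second at -0.10 ± 0.06 and the third at -0.10 ± 0.08, and none of these passed. Only the dimmest Rgs5 probe set passed, at -0.44 ± 0.06 (adjusted p = 0.000678, limma). Its fed arrays were at 7.62 to 7.92 and its fasted arrays at 7.30 to 7.40. For Flt1 the second probe set was at -0.33 ± 0.09 (adjusted p = 0.0343), while the brightest was at 0.07 ± 0.10 and the third at -0.02 ± 0.06. The Erg probe sets had opposite signs, 0.16 ± 0.09 and -0.16 ± 0.07, and neither passed. Whether Rgs5, Flt1 and Cdh5 passed therefore depended on which probe set stood for the gene, and for Erg only the sign did. What set the probe sets of these genes apart was not tested.

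**Figure D4:**
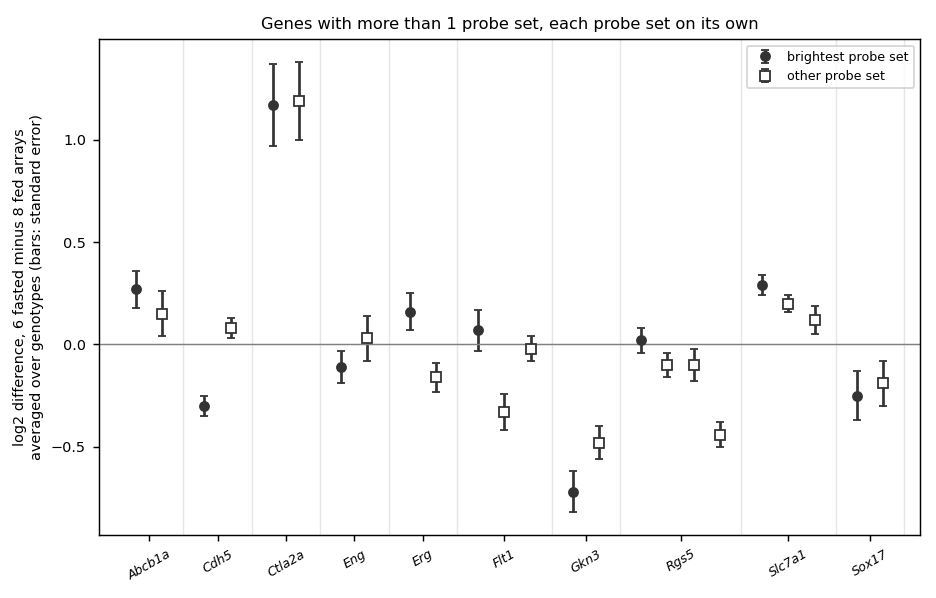
Log2 difference of 6 fasted against 8 fed arrays, averaged over genotypes (y axis), for every probe set of the 10 genes that have more than 1 (x axis), with the brightest filled and the others open and bars of 1 standard error from limma. The probe sets of Ctla2a, at 1.17 and 1.19, lie together, while those of Rgs5 spread from 0.02 to -0.44 and those of Cdh5 lie at -0.30 and 0.08.

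The second question was whether deletion of Mfn1 in POMC neurons altered the vessel genes. No member passed in limma in fed mice, where 1 gene of all passed (0.00585%), or averaged over feeding states (0.00585% again). In fasted mice and in the interaction (the knockout's fasting difference minus the control's) no member and no other gene passed (0.0% each). At an unadjusted p under 0.05 there were 2 members, Pecam1 (-0.30 ± 0.13) and Rgs5 (-0.16 ± 0.07), among 790 genes in fed mice, 0 among 795 averaged, 0 among 660 in fasted mice and 0 among 653 in the interaction. Averaged genotype differences of the 31 genes lay between -0.18 and 0.18, and their 95% intervals reached from -0.44 to 0.52. The largest interaction was that of Sox18, 0.59 with a 95% interval of -0.10 to 1.28, since its fasting difference was -0.92 ± 0.23 in control and -0.32 ± 0.23 in knockout mice. Kdr was at 0.43 (-0.38 to 1.23), Tek at 0.38 (-0.16 to 0.91), Pecam1 at 0.38 (-0.04 to 0.80) and Flt1 at 0.38 (-0.06 to 0.82). A call in 1 genotype alone is thus not shown to differ from the other genotype for Tek, Sox18, Slc7a1 or Ctla2a. Of the choroid plexus genes, 8 of 8 measured were higher in the knockout averaged over feeding states, with a median of 1.44. In limma 7 had an unadjusted p under 0.05 and none passed. Their mean centred level lay between -1.42 and 0.71 on control fed and between -1.27 and 1.61 on knockout fed arrays. With this level as a covariate no member was called for genotype either.

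Other genes of the vessel wall were taken from lists of the same pathways. Averaged over genotypes, 5.14% of all genes tested were called higher and 4.9% lower. Each count of rises and falls below stands against these shares. Whether any list differs from them was not tested. Of the further genes named from here on, 5 had mean levels below the brightest nonspecific probe set (5.28), so their differences rest on dim signals. They were Slc38a5 (4.87), Icam2 (4.9), Flt4 (4.12), Wnt7a (5.12) and Lyve1 (4.12). Among 20 further barrier transporters and receptors 4 rose and 4 fell averaged over genotypes, with a median of -0.08. Abcc4, the efflux pump MRP4, rose by 0.87 ± 0.13 (adjusted p = 0.00148) and Slc2a1, the glucose carrier GLUT1, by 0.62 ± 0.10 (adjusted p = 0.00302) in limma. Slc38a5, a glutamine carrier, fell by 0.61 ± 0.10 (adjusted p = 0.00337) and its relative Slc38a3 by 0.35 ± 0.06 (adjusted p = 0.00325), the latter at -0.09 when its probe sets were averaged. Carriers on this list thus moved in both directions in whole tissue, and the cells in which they changed were not identified.

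Of 19 further junction and adhesion genes, 3 fell and none rose, with a median of -0.07. They were the endothelial adhesion molecules Cd34 (-0.66 ± 0.13), Icam2 (-0.52 ± 0.14) and Mcam (-0.43 ± 0.08), and Icam2 held its call in 9 of 19 alternatives. Of 27 angiogenic ligands and signalling partners, 1 rose and 5 fell, with a median of 0.02. Apln, the gene of the ligand of the apelin receptor, fell by 0.67 ± 0.05 (adjusted p = 6e-06, limma) and held in 20 of 20 alternatives. Which cells of the tissue express Apln was not measured. The VEGF co-receptors Nrp1 and Nrp2 fell by 0.56 ± 0.13 and by 0.29 ± 0.07, and Flt4, the receptor of VEGF-C, rose by 0.24 ± 0.06. Without control fasted replicate 1 the call of Nrp1 was lost.

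Wnt ligands of neural cells and Norrin act through frizzled receptors of the endothelium to build and keep the barrier. Of 18 genes of this pathway 1 rose and 4 fell, with a median of -0.07. Fzd4, the receptor of Norrin, rose by 0.56 ± 0.10, while the ligand gene Wnt7a fell by 0.69 ± 0.12, the nuclear factor gene Lef1 by 0.55 ± 0.12 and the feedback inhibitor gene Nkd1 by 0.38 ± 0.08. When the probe sets of a gene were averaged, Wnt7a was at -0.29, Fzd4 at 0.32 and Nkd1 at -0.05, of which Nkd1 no longer passed.

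Of 8 genes of caveolae and fenestrae, 3 rose and 2 fell. Cavin2, a coat protein of caveolae in endothelium, rose by 0.65 ± 0.13 and Nostrin, a trafficking partner of the endothelial nitric oxide synthase, by 0.54 ± 0.13, whereas Cavin3 fell by 0.40 ± 0.10 and Pacsin2, which bends membranes at caveolae, by 0.16 ± 0.04. Caveolar coat genes thus did not all move with Cav1. The calls of Nostrin and Pacsin2 were lost without knockout fasted replicate 2, that of Nostrin without control fasted replicate 1 and that of Pacsin2 without control fasted replicate 3.

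Among 9 arterial genes 1 rose and 1 fell, where 10.0% of all genes passed in either direction. Fbln5, a fibulin of elastic fibres, rose by 0.87 ± 0.08 (adjusted p = 3.49e-05, limma) and held in 20 of 20 alternatives, at 0.43 when its probe sets were averaged. Unc5b, a netrin receptor of arterial endothelium, fell by 0.40 ± 0.09. None of 9 measured genes of venous and activated endothelium passed in limma. Of these 9 genes, 3 had an unadjusted p under 0.05, as had 4448 of all 17097 genes. Of 13 nuclear factors and signalling enzymes, Gata2 rose by 0.42 ± 0.10 and Krit1, a protein of endothelial junctions, fell by 0.27 ± 0.05, and the call of Gata2 was lost without knockout fasted replicate 2.

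Of 13 further pericyte genes, 2 fell, where 10.0% of all genes passed in either direction. Vtn (vitronectin), which brain pericytes secrete, fell by 0.42 ± 0.06 (adjusted p = 0.000993, limma), and Notch3, a receptor of mural cells, by 0.20 ± 0.05, a call held in 8 of 20 alternatives. In smooth muscle 1 of 6 genes passed, the kinase gene Mylk at 0.33 ± 0.10, held in 8 of 20 alternatives. In the basement membrane 1 of 6 passed, and this was Fn1 (fibronectin), which rose by 0.68 ± 0.13. Among the named genes of these lists, Apln and Fbln5 were the ones still called when the number series was a covariate. The plot of other vessel genes past the threshold gives both genotypes.

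**Figure D5:**
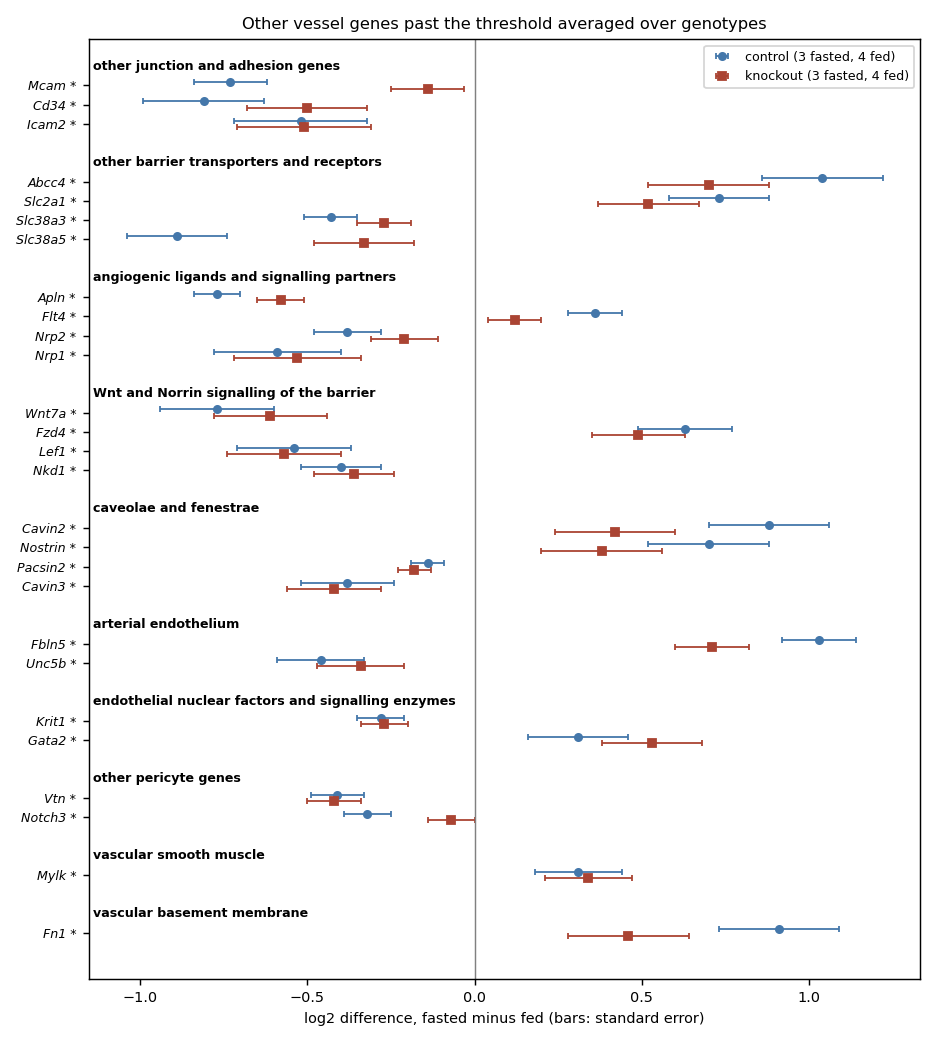
Log2 difference between fasted and fed arrays (x axis) for further vessel genes named by the smallest p in their list, in control mice (circles) and knockout mice (squares), with bars of 1 standard error from limma and 3 fasted and 4 fed arrays per genotype. Genes on both sides of 0 appear in the transporter, angiogenic, Wnt, caveolar and arterial lists, with Abcc4 at 1.04 and Fbln5 at 1.03 in control mice and Slc38a5 at -0.89 in control mice.

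Markers of other cells moved with the fast in the same tissue, where 10.0% of all genes passed in either direction. Of 6 measured microglial genes 4 fell, with a median of -0.55, and their mean centred level lay between 0.06 and 0.32 on fed and between -0.49 and 0.06 on fasted arrays. Of 8 astrocyte genes 3 rose and 1 fell, with levels of -0.14 to -0.02 on fed and -0.04 to 0.26 on fasted arrays. Of 7 measured interferon-induced genes 6 fell, with a median of -0.99. The low-series fed array, knockout fed replicate 1, read like the fasted arrays here, for example 6.76 for Ifit3 and 4.59 for Oasl2, whose differences became 0.05 and 0.04 once the number series was a covariate. Among 7 perivascular macrophage genes Lyve1 rose by 0.20 ± 0.05, a call held in 7 of 19 alternatives. Of 6 oligodendrocyte genes 1 rose and 1 fell. None of 8 neuronal, 9 fibroblast, 8 choroid plexus and 3 red blood cell genes passed in limma. At an unadjusted p under 0.05 there was 1 fibroblast gene and none of the others, against 4448 of all 17097 genes. The part of these shifts in the vessel genes was not tested.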

How the data were processed

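RNA of 14 hypothalamus samples (150 ng each) was measured on Affymetrix arrays, and the number of arrays limits the precision. The deposited values are log2 expression. Per the submitters' processing notes, the authors used RMA and the affy tool. RMA corrects background, equalises array distributions and summarises probes, which compresses small differences of dim genes. For the annotation, a genome build was not given in the sources used here. Medians of the arrays ranged from 4.98 to 5.05, pairwise Pearson's r over probe sets was 0.9908 to 0.9968, and at most 2.9% of values were identical in any pair.

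Of 45141 probe sets, 28898 named 1 gene, 551 several and 15692 none, and 99.3% of gene IDs matched RefSeq. The brightest probe set stood for each of 17097 genes. limma 3.58.1 in R 4.3.3 fitted 1 coefficient per group over all 14 arrays, then contrasts and eBayes (10 residual and 3.27 prior degrees of freedom, two-sided tests, Benjamini-Hochberg over all genes, threshold 0.05), a pipeline tested on simulated data. Every measured member was named, and of each further list up to 4 genes (cell type lists up to 3) past the threshold with the smallest p. The members and lists were chosen with earlier results of these data known. Hypothalamic peptide genes were chosen after the files were seen. Alternatives were the mean of probe sets, leaving out the 40% lowest genes, a trended and robust prior, only the groups compared, centred arrays, the number series or the choroid plexus level as a covariate, and each array left out. Sequences are from RefSeq (GRCm38.p6).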

Additional observations from a re-analysis of the deposited data

Results flagged for a closer look

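Within groups of 4 arrays, 1 array stood apart for 5 of the named genes, by Dixon's test at the 95% level over 140 groups of 31 members and 39 other genes. Chance gives such a value in about 1 in 20 groups. None of the 31 members was among them. Fzd4 was at 6.08 and Fgfr3, an astrocyte receptor gene, at 10.29 on control fed replicate 1, against 5.71 to 5.74 and 10.15 to 10.17 on the other control fed arrays. Pacsin2 was at 10.11 on knockout fed replicate 3, against 10.16 to 10.17 on the other knockout fed arrays. On knockout fed replicate 1, the fed array of the low number series, the interferon-induced genes Ifit3 and Oasl2 were at 6.76 and 4.59, against 8.25 to 8.38 and 5.75 to 5.81 on the other knockout fed arrays.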

How the results depend on the processing

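No paired analysis was possible because no title number occurs more than once, so the groups share none. Averaged over genotypes, 12 members were called, 1 with the number series as a covariate and 10 to 13 with 1 array left out (15 and 998 to 2120 of all 17097 genes, against 1715). Under the other alternatives 11 to 13 members were called. Of all genes these called 1609 to 2137, with 2057 of 10258 when the 40% lowest genes were left out. In control mice the 7 calls became 0 with the number series and 2 to 9 with 1 array left out (2 and 216 to 685 of all genes, against 472). In knockout mice the 5 calls became 1 with only the groups compared, 0 with the number series, 0 within the low number series (added after seeing the data) and 1 to 7 with 1 array left out (10, 0, 9 and 18 to 363 of all genes, against 119). Mfsd2a held its averaged call in 20 of 20 alternatives, and 9 of the 12 called members held in every one that tested them but, at most, the number series. Cdh5, Sox18 and Kcnj8 were lost in others too. With the number series Ifit3 turned to 0.054 and Oasl2 to 0.040. Counts of members called for genotype and for the interaction were 0 in every alternative. Signal near background limits the members Cdh5, Gkn3, Tie1, Erg, Vwf and Pdgfrb. It also limits the further genes Slc38a5, Icam2, Flt4, Wnt7a and Lyve1.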
